A study of Mus musculus with 42 samples.

Results

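Microglia express much of the complement system themselves, and 8 of its genes were followed here: the C1q chains C1qa, C1qb and C1qc, the central component C3, the anaphylatoxin receptors C3ar1 and C5ar1, and the integrin chains Itgam and Itgb2 that together form complement receptor 3. The 8 were chosen by name, and all 8 had a row among the 24421 gene rows of the whole-brain files and the 53546 of the cortex and hippocampus table. They were read in all 42 bulk RNA-seq libraries, 1 animal and tissue each. The question set by the design was how the gut flora, acetate and the 5xFAD genotype bear on these transcripts.

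All animals were C57BL/6 mice, and microglia were sorted as CD11b+ CD45lo cells. Whole-brain microglia came from wild-type mice of 6 to 12 weeks, of which 3 had a specific-pathogen-free flora (SPF) and 5 were raised germ-free (GF). The titles of these whole-brain libraries read 8w and F. The other animals were 16 weeks old. Cortical microglia came from wild-type SPF, GF and acetate-treated mice (n = 4 each), the last being mice that drank acetate in their water for 8 weeks per the labels, which also speak of a 4-week group that no library's label names. Hippocampal microglia came from wild-type SPF (n = 4), GF (n = 3) and acetate-treated (n = 4) mice and from 5xFAD SPF (n = 4), GF (n = 3) and acetate-treated (n = 4) mice. The acetate groups are named GFA with an animal number, and their comparison with GF is read as acetate added to the germ-free state. 5xFAD mice carry human transgenes with familial Alzheimer mutations, driven in neurons by Thy1 promoter sequence, and deposit amyloid. Cortex and hippocampus of 11 wild-type animals were taken from the same mice.

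C1q is the recognition part of the classical pathway: its 3 chains, encoded side by side on chromosome 4, assemble into a hexamer of trimers that binds antibodies, apoptotic debris, amyloid and synapses. Bound C1q leads to cleavage of C3, whose fragments coat targets and are read by complement receptor 3 (CD11b, from Itgam, with CD18, from Itgb2), while the small fragments released from C3 and C5 signal through C3ar1 and C5ar1. In the brain, C1q, C3 and complement receptor 3 are known for marking and removing synapses during development and around amyloid.

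Levels are CPM, the read counts of a gene scaled to the size of its library with TMM factors, and a change is the log2 difference fitted by edgeR's quasi-likelihood test, with its standard error (SE). A gene is said to have risen or fallen where its Benjamini-Hochberg p, adjusted over all genes tested in that tissue, was under 0.05. In bulk samples, fewer cells of a type and less RNA per cell cannot be told apart. The p-values set a difference against the spread between these animals, estimated over all groups of a fit. Between regions, this spread is the one left within animals. Depth was 19329304 to 25366393 counts per library in whole brain, 15790383 to 23860490 in cortex and 5743891 to 22532410 in hippocampus, where SPF4 and 5xFAD SPF2142 were the shallowest.

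All 10 microglial markers checked reached at least 1 CPM in every library. Their summed level, which was not tested, was 44944 to 50677 CPM in cortical GF libraries against 52673 to 66005 in SPF and 55769 to 60866 under acetate. In wild-type hippocampus it was 43169 to 44988 CPM in GF, 54088 to 59786 in SPF and 55265 to 57132 under acetate. GF libraries thus lay below the others in both wild-type regions. In 5xFAD hippocampus GF, at 41733 to 43114 CPM, lay below acetate, at 48179 to 50502. SPF there, at 41830 to 55820 CPM, overlapped both, with the library labelled SPF2152 as its highest. In whole brain the sum was 77573 to 80426 CPM in GF and 80506 to 81776 in SPF. The part of these differences in the changes of complement genes was not tested. Neutrophil markers were near 0 in most libraries, with sums of 175 CPM in whole-brain GF 4, 28.4 in whole-brain GF 1, 227 in hippocampal GF532, 262 in 5xFAD SPF2153 and 18.3 in cortical GFA524.

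The library labelled 5xFAD SPF2152 did not look like the other 5xFAD libraries. Cst7, a gene of amyloid-associated microglia, was at 13.1 CPM there, against 355 to 783 in the other 10 5xFAD libraries and 4.32 to 22.02 in wild-type hippocampus. Clec7a and Itgax, which mark the same state, were likewise within the wild-type range in it, at 23.7 and 8.99 CPM. Calls and shares of calls that rest on 5xFAD SPF mice are therefore given with and without it. Whole-brain and regional samples also differed in sex, by Xist at 95.2 to 192 CPM in the first and 0 to 3.30 in the second, as well as in age and in the table they came from, so levels between the 2 sets were not tested.

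Over 22 comparisons (16 between groups and 6 of differences between differences), 7 of 176 tests on the complement genes passed, in 4 comparisons and for 5 genes: C1qb, C1qc, C5ar1, Itgam and Itgb2. C1qa, C3 and C3ar1 passed in none. The interaction tests gave 0 calls by edgeR and by DESeq2, with 4 of them at an unadjusted p under 0.05.

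The C1q chains were among the most abundant messages of these cells. Together they took 2.24% to 2.63% of all counts in whole-brain libraries and 1.26% to 2.27% in cortex and hippocampus. Among all genes of a library, C1qb ranked 4 to 12, C1qc 8 to 15 and C1qa 14 to 25. Per kilobase of exon, C1qb stood above C1qa and C1qa above C1qc in the mean of all 11 groups. In cortical SPF microglia these levels were 6011 ± 281, 3325 ± 280 and 2708 ± 123 CPM per kb (SD, n = 4), and the ranges of the 3 chains did not overlap there. In CPM, C1qc stood above C1qa in the mean of all 11 groups, at 5228 against 3458 in cortical SPF microglia. The place of C1qa above C1qc thus rests on the exon lengths used, 1040 bases for C1qa and 1931 for C1qc. The annotation behind the counts is not known, so the order of these chains is not settled.

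**Figure D1:**
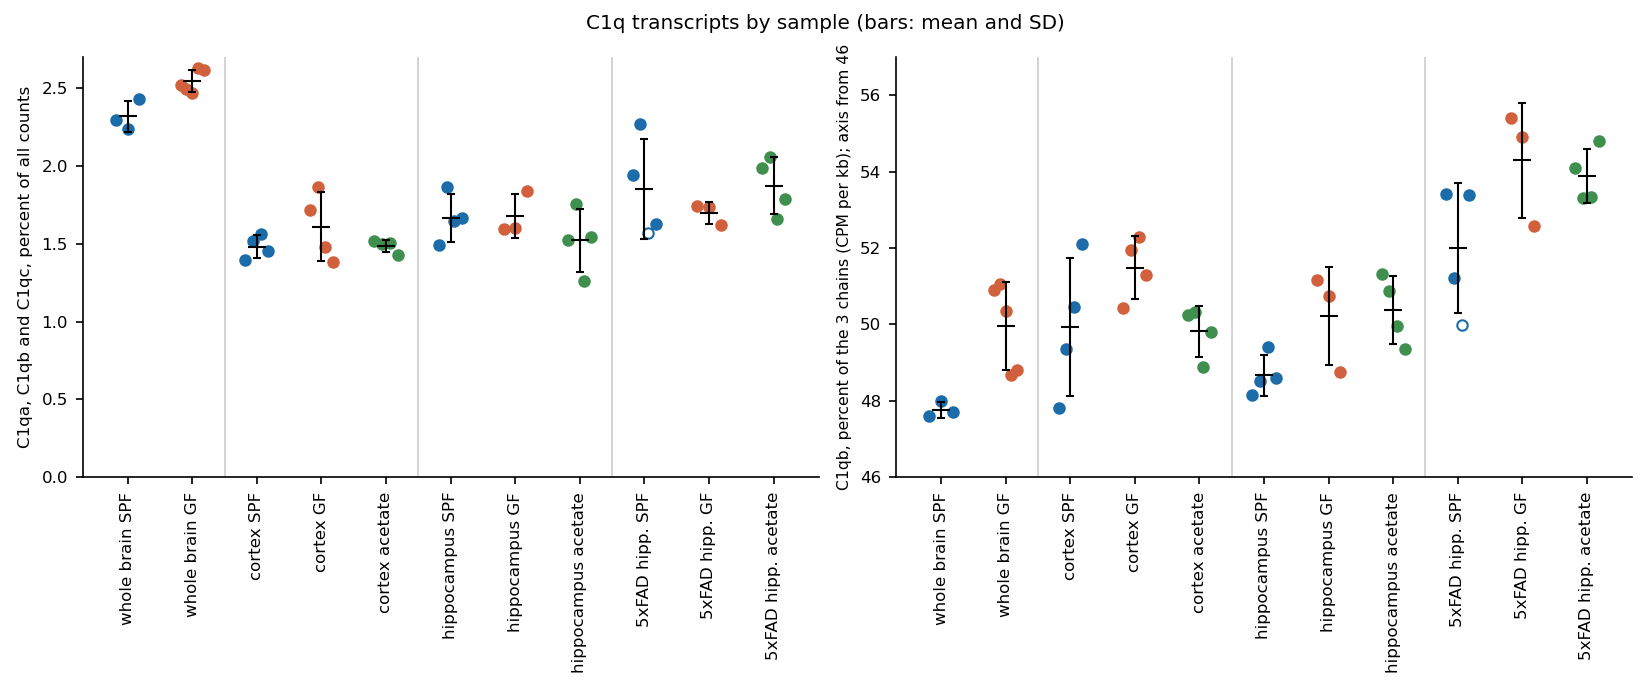
Share of all counts taken by C1qa, C1qb and C1qc together (one panel, percent) and share of C1qb among the 3 chains on the CPM per kb scale (other panel, percent, axis starting at 46), by group; points are samples (open for 5xFAD SPF2152) and bars the mean and SD. Whole-brain samples lie between 2.24% and 2.63% of counts, above most regional samples, and 5xFAD samples lie toward the upper end for the C1qb share.

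In whole-brain microglia, C1qb and C1qc rose in germ-free mice by small steps, and C1qa did not pass. C1qb stood at 9378, 9264 and 9956 CPM in the 3 SPF mice and at 10990, 10895, 10988, 11245 and 11005 CPM in the 5 GF mice. Every GF value lay above every SPF value. The log2 change was 0.21 (SE 0.035, edgeR adjusted p = 0.0078). C1qc went from 7620 ± 401 CPM (SD, n = 3) to 8707 ± 334 CPM (SD, n = 5), again without overlap, by log2 0.19 (SE 0.044, edgeR adjusted p = 0.045). C1qa was at 5862 ± 211 CPM (SD, n = 3) in SPF and 5880 ± 567 CPM (SD, n = 5) in GF, with the GF mice on both sides of the SPF mice. Both calls depended on single libraries: C1qb missed the threshold without SPF 1 (edgeR adjusted p = 0.065) or SPF 3 (edgeR adjusted p = 0.055), and C1qc in 7 of 14 alternatives, including without SPF 1, SPF 3, GF 1, GF 2, GF 4 or GF 5 (edgeR adjusted p of 0.076 to 0.19).

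With C5ar1, 3 of the 8 complement genes rose in GF whole-brain microglia and 0 fell, where 1.99% of all genes tested were called and 1.02% were called higher. In 4 of the 8, the groups did not overlap, against 11.2% of all genes. The median change of the 8 was −0.02, and that of all genes 0.00, on the log2 scale.

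In cortex and hippocampus, the gut flora left no called change in C1q. C1qb in cortex was at 6540 ± 306 CPM in SPF, 7026 ± 999.9 in GF and 6591 ± 194 under acetate (SD, n = 4 each). In GF cortex the spread was wide: GF529 held 8259 CPM and GF532 held 5928, on either side of the SPF range of 6191 to 6918. In wild-type hippocampus C1qb was at 6981 ± 634 CPM in SPF (SD, n = 4), 6923 ± 378 in GF (SD, n = 3) and 6586 ± 955 under acetate (SD, n = 4). The log2 changes of the 3 chains between flora conditions ran from −0.21 to 0.10 in wild-type cortex and hippocampus, with SEs from 0.084 to 0.13. In 5xFAD hippocampus C1qb was at 8386 ± 1524 CPM in SPF (SD, n = 4) and 7839 ± 669 in GF (SD, n = 3). Without the library labelled SPF2152, C1qa differed there by −0.33 in GF against SPF (SE 0.13, edgeR adjusted p = 0.28). C1qb differed by −0.20 (SE 0.12, edgeR adjusted p = 0.57) and C1qc by −0.27 (SE 0.13, edgeR adjusted p = 0.40).

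C1qb rose in 5xFAD hippocampus under acetate and did not pass in SPF or GF mice. Acetate-treated wild-type mice held 6641, 7746, 5409 and 6549 CPM and acetate-treated 5xFAD mice 9546, 9840, 7769 and 8745. The lowest 5xFAD mouse lay just above the highest wild-type mouse. The log2 difference was 0.44 (SE 0.117, edgeR adjusted p = 0.042), and it missed the threshold in 8 of 16 alternatives, among them without 5xFAD GFA519, GFA520 or GFA522 and without wild-type GFA518, GFA524 or GFA525 (edgeR adjusted p of 0.082 to 0.15). C1qa differed by log2 0.31 (SE 0.12, edgeR adjusted p = 0.19) and C1qc by 0.16 (SE 0.12, edgeR adjusted p = 0.61) in the same comparison.

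Under SPF housing C1qb was at 6981 ± 634 CPM in wild type and 8386 ± 1524 in 5xFAD (SD, n = 4 each), a log2 difference of 0.27 (SE 0.12, edgeR adjusted p = 0.42). Without the library labelled SPF2152, whose C1qb of 6725 CPM was the lowest of the group, the 5xFAD mean was 8940 ± 1281 CPM (SD, n = 3) and the difference 0.36 (SE 0.11, edgeR adjusted p = 0.14). In GF mice the difference was 0.18 (SE 0.14, edgeR adjusted p = 0.74). Whether the 5xFAD effect on C1qb differed between conditions was tested as an interaction, and none passed (log2 −0.09 for GF against SPF, 0.27 for acetate against GF and 0.18 for acetate against SPF, edgeR adjusted p of 0.93 or more; without SPF2152 −0.18 for GF against SPF and 0.09 for acetate against SPF, edgeR adjusted p of 0.95 and 0.97).

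C1qb made up a larger share of the 3 chains in most 5xFAD libraries than in wild-type hippocampus. On the CPM per kb scale C1qb made up 48.1% to 51.3% of the 3 chains in the 11 wild-type hippocampal libraries. It made up 51.2% to 55.4% in the 10 5xFAD libraries other than SPF2152, and 9 of these lay above the highest wild-type value. The library labelled 5xFAD SPF2152 stood at 49.99%, inside the wild-type range. Wild-type cortex, at 47.8% to 52.3% (n = 12), overlapped the 5xFAD range, and whole brain was at 47.6% to 51.1% (n = 8). These shares are a description, noticed in the data, and were not tested.

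The 3 chains varied together from mouse to mouse. After removing group means, log2 CPM over the 34 cortex and hippocampus libraries correlated with r = 0.87 between C1qa and C1qb, 0.91 between C1qa and C1qc and 0.92 between C1qb and C1qc. Over the 8 whole-brain libraries the values were 0.52, 0.12 and 0.71. The points share libraries and their depth, and 11 animals gave 2 libraries each, so these are given without a test. Because C1qb and C1qc move together and neighbour each other, the 250 bases before their annotated starts are shown, from RefSeq on build GRCm38.p6, 5′ to 3′ on the gene's strand. Capitals mark a match to GAGGAA, the core letters of sites for the myeloid factor PU.1, or to its reverse complement. C1qb lies at chr4:136886201-136886450 (minus strand) and C1qc at chr4:136892915-136893164 (minus strand).
C1qb: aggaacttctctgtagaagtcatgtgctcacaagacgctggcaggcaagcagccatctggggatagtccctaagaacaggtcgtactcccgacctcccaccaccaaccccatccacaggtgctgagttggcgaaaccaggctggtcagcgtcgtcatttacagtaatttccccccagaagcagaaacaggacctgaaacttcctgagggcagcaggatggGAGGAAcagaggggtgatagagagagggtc
C1qc: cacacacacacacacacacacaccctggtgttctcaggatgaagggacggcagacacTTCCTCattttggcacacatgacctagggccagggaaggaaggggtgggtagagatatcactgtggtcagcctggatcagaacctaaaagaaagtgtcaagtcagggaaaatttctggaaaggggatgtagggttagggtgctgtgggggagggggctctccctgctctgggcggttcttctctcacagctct
C1qb holds the motif 30 bases before its start on its own strand and C1qc 193 bases before its start on the other strand. Over 6 of the 8 genes with a sequence in the table (C1qa and Itgb2 have none there), 3 hold GAGGAA on either strand within 250 bases, and so do 23.25% of 32851 promoters. TGANTCA, the letters of the AP-1 site, is found in 1 of the 6, C3ar1, 22 bases before its start, and in 6.749% of promoters. A match is a description of letters, not a bound site.

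C3, the component on which all complement pathways converge, was close to absent. Its level was 0 to 8.94 CPM, with 7 of 42 libraries at 0 and 5 more at 1 to 3 counts. Per kilobase it was 0.33 ± 0.40 CPM in cortical SPF microglia (SD, n = 4), below every other gene of the set in all 11 groups. The highest group was acetate-treated 5xFAD hippocampus, at 5.43, 2.67, 4.06 and 8.94 CPM, against 0, 0, 1.90 and 0 in acetate-treated wild type. These 2 groups did not overlap, with a log2 difference of 3.45 (SE 1.40, edgeR adjusted p = 0.24). It depended on GFA524, the single acetate-treated wild-type mouse with C3 counts in hippocampus: without it the comparison was called (edgeR adjusted p = 0.022). In every other comparison of C3 the edgeR adjusted p was 0.41 or more, at SEs of 0.82 to 3.2 on the log2 scale.

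**Figure D2:**
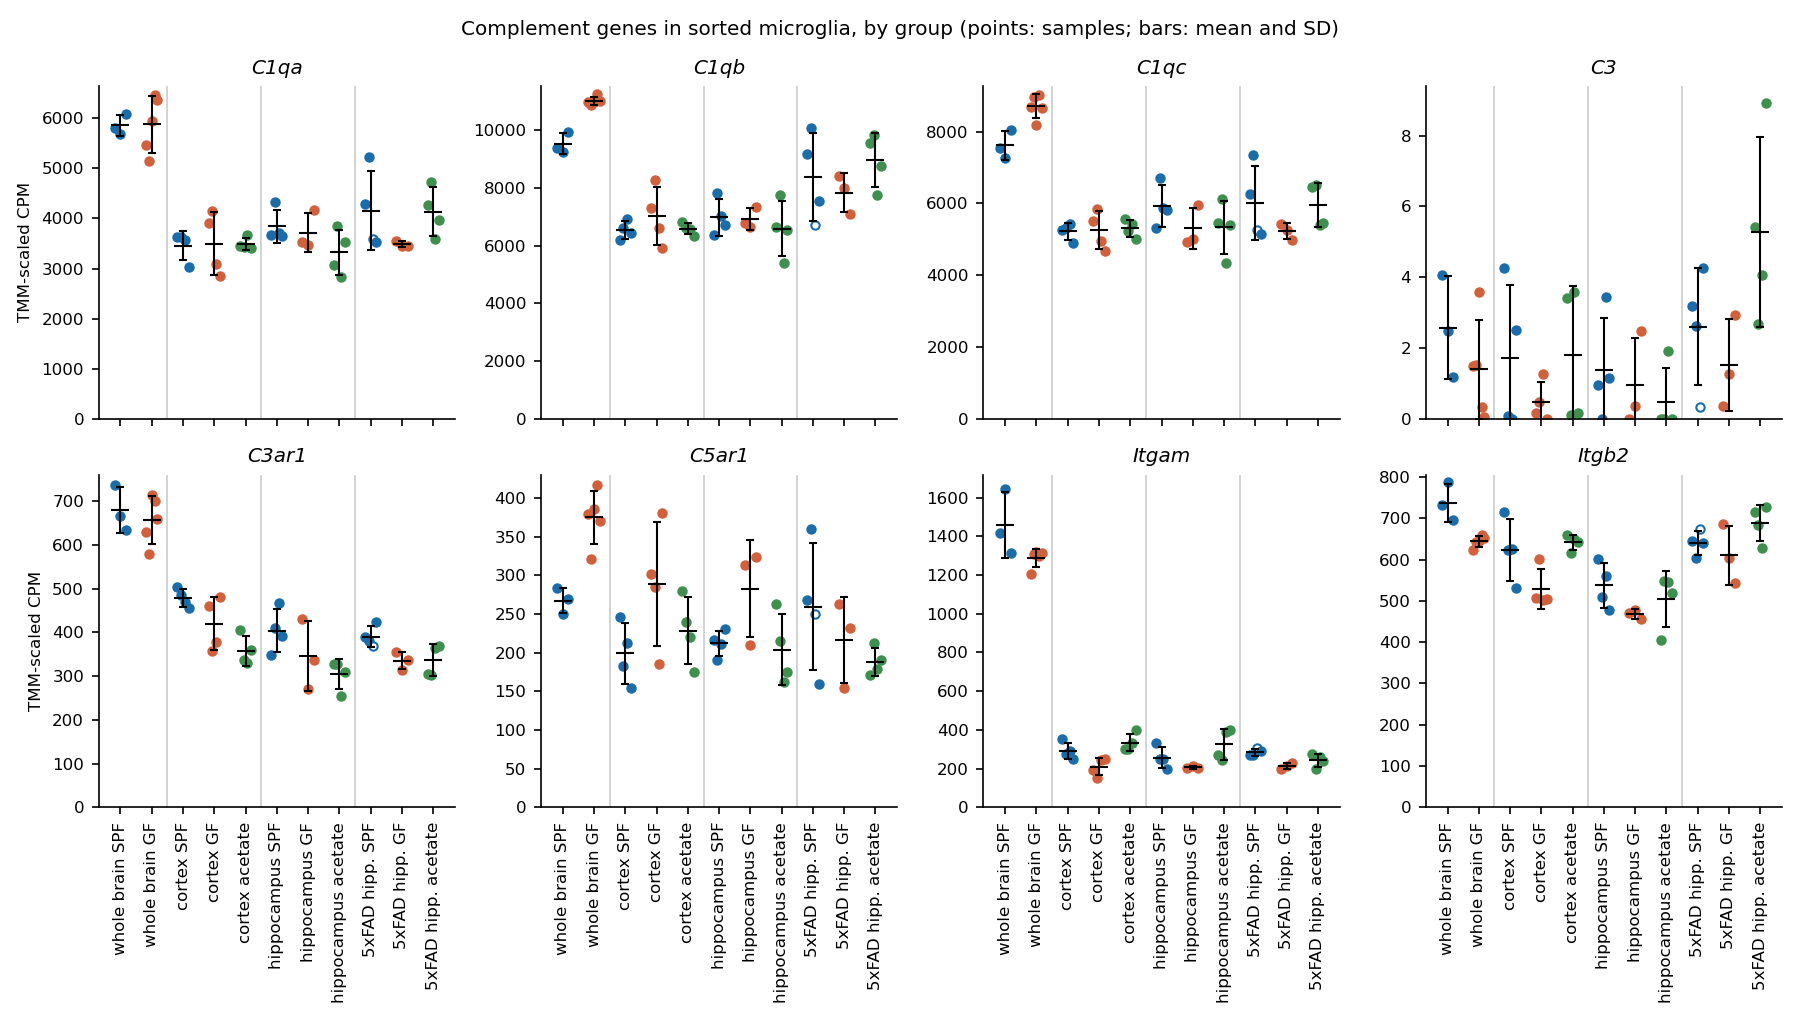
TMM-scaled CPM of each of the 8 complement genes in each sample, by group; points are samples (open for 5xFAD SPF2152) and bars the mean and SD, each panel with its own axis from 0. C5ar1 in whole-brain GF mice and Itgam in cortical acetate-treated mice lie above their reference groups, and C3 stays below 9 CPM in every sample.

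Both anaphylatoxin receptors were expressed at moderate levels, and C5ar1, the receptor of the C5a fragment, rose in germ-free whole brain. The SPF mice held 283, 250 and 269 CPM and the GF mice 380, 322, 385, 417 and 371 CPM. The groups did not overlap. The log2 change was 0.49 (SE 0.077, edgeR adjusted p = 0.0054), a call that was kept in all 14 alternatives (edgeR adjusted p up to 0.040). GF 4, the library with neutrophil markers at a sum of 175 CPM, was the highest, and GF 1 held 28.4 CPM of them. Neutrophils carry C5ar1 as well. Without GF 4 the change was 0.44 (SE 0.076, edgeR adjusted p = 0.013), and without GF 1 it was 0.48 (SE 0.085, edgeR adjusted p = 0.014). GF 2, GF 3 and GF 5, with neutrophil markers at 0 to 0.305 CPM, held 322, 385 and 371 CPM of C5ar1, all above the SPF mice. No fit left out GF 1 and GF 4 together, and the part of neutrophils in the change of C5ar1 was not tested.

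The regions of older mice gave the same sign without a call. C5ar1 was at 199 ± 39.5 CPM in cortical SPF and 289 ± 80.4 in GF microglia (SD, n = 4 each), a log2 change of 0.53 (SE 0.18, edgeR adjusted p = 0.17). GF530, at 186 CPM, fell within the SPF range, and without it the change was 0.69 (edgeR adjusted p = 0.042). In wild-type hippocampus C5ar1 was at 212 ± 16.1 CPM in SPF (SD, n = 4) and 283 ± 62.6 in GF (SD, n = 3), with log2 0.41 (SE 0.21, edgeR adjusted p = 0.44). There GF532 held 324 CPM together with neutrophil markers at 227 CPM. In 5xFAD hippocampus the fitted change had the other sign, −0.27 (SE 0.22, edgeR adjusted p = 0.73), and the difference between the genotypes was −0.68 (SE 0.31, edgeR adjusted p = 0.88). Without the library labelled SPF2152 they were −0.29 (SE 0.24, edgeR adjusted p = 0.72) and −0.69 (SE 0.32, edgeR adjusted p = 0.78). Under acetate C5ar1 was at 229 ± 43.6 CPM in cortex (SD, n = 4), between the SPF and GF means. Hippocampus did not share this place. Acetate-treated mice there held 204 ± 45.9 CPM in wild type and 188 ± 18.2 in 5xFAD (SD, n = 4 each). Both means lay below the SPF and GF means of their genotype (260 and 216 CPM in 5xFAD).

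The 250 bases before C5ar1 at chr7:16259339-16259588 (minus strand), which neighbours the gene of the other C5a receptor C5ar2, are shown because its change in whole brain was called in all 14 alternatives.
C5ar1: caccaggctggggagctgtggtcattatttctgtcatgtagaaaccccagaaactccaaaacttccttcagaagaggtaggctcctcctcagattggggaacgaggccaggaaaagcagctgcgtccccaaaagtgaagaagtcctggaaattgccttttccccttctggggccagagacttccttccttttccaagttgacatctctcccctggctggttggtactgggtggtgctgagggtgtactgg
Neither motif searched is in this window, so no letter is in capitals.

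C3ar1, the receptor of the C3a fragment, did not pass in any comparison by edgeR, and its fitted changes from SPF to GF and to acetate were all below 0. In whole brain it was at 679 ± 52.6 CPM in SPF (SD, n = 3) and 657 ± 55.0 in GF (SD, n = 5). In cortex the SPF mice held 505, 486, 469 and 456 CPM, the GF mice 461, 358, 379 and 481 and the acetate-treated mice 406, 337, 330 and 359. Acetate-treated and SPF mice did not overlap, where 1 of the 8 genes and 4.18% of all genes did not, and the log2 difference was −0.43 (SE 0.10, edgeR adjusted p = 0.10); DESeq2 called it (adjusted p = 0.011). Hippocampus showed the same order, with 404 ± 49.4 CPM in SPF (SD, n = 4), 346 ± 81.1 in GF (SD, n = 3) and 305 ± 34.2 under acetate (SD, n = 4). There the difference of acetate from SPF was −0.41 (SE 0.12, edgeR adjusted p = 0.32), also without overlap, where 3.93% of all genes did not overlap.

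The log2 ratio of C3ar1 to C5ar1 was therefore lower in GF than in SPF in each wild-type tissue: 0.81 against 1.34 in whole brain, 0.58 against 1.29 in cortex and 0.29 against 0.92 in hippocampus. In 5xFAD hippocampus the ratio was not lower, at 0.67 in GF and 0.64 in SPF. It is given as a description and was not tested. Per kilobase, the receptors changed places in the order of levels, with C3ar1 above C5ar1 in cortical SPF microglia (111 ± 4.99 against 77.5 ± 15.4 CPM per kb, SD, n = 4) and C5ar1 above C3ar1 in hippocampal GF microglia (110 ± 24.4 against 80.4 ± 18.8, SD, n = 3). In the second pair the ranges overlapped. The pairs differ in both region and flora. C3ar1 stayed above C5ar1 in whole-brain GF microglia (means of 153 and 146 CPM per kb). C5ar1 stood above C3ar1 in 5xFAD SPF hippocampus (means of 101 and 90.6 CPM per kb).

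Itgam, which encodes the CD11b chain of complement receptor 3 and thus the gate of the sort, rose in cortex when germ-free mice were given acetate. Cortical GF mice held 193, 153, 243 and 249 CPM, acetate-treated mice 303, 303, 334 and 397, and SPF mice 350, 276, 289 and 247. Every acetate-treated mouse lay above every GF mouse. The log2 difference of acetate from GF was 0.67 (SE 0.14, edgeR adjusted p = 0.032), the single call among the 8 genes in a comparison where 0.973% of all genes were called and 0.45% were called higher. It missed the threshold without GF528, GF529, GFA523, GFA524 or GFA525 (edgeR adjusted p of 0.066 to 0.14). GF and SPF differed by −0.48 (SE 0.14, edgeR adjusted p = 0.11), a comparison that shares the GF mice with the previous one.

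Hippocampal Itgam had the same pattern below the threshold. Wild-type GF mice held 202, 214 and 200 CPM and acetate-treated mice 269, 244, 387 and 398, without overlap, where 8.73% of all genes did not overlap. The log2 difference was 0.66 (SE 0.16, edgeR adjusted p = 0.065), and it passed with DESeq2 (adjusted p = 0.0086), with no filter on low counts, with a filter at 5 CPM, and without GFA518 or GFA523. In 5xFAD mice acetate and GF differed by 0.18 (SE 0.16, edgeR adjusted p = 0.94), with 199, 215 and 231 CPM in GF and 275, 198, 258 and 239 CPM under acetate. The difference between the genotypes was −0.48 (SE 0.22, edgeR adjusted p = 0.93), so a difference in response was not shown. 5xFAD GF mice lay below all 4 5xFAD SPF mice (268 to 304 CPM) by −0.40 (SE 0.16, edgeR adjusted p = 0.27), and below the 3 other than SPF2152 (268 to 289.6 CPM) by −0.37 (SE 0.17, edgeR adjusted p = 0.38).

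Itgb2, which encodes CD18, the partner chain, stood in the same order as Itgam in cortex and did not pass. GF mice held 508, 603, 501 and 504 CPM and acetate-treated mice 660, 616, 649 and 642, again without overlap, and 2 of the 8 genes thus did not overlap where 8.65% of all genes did not. The log2 difference was 0.27 (SE 0.095, edgeR adjusted p = 0.22). In whole brain Itgb2 went from 738 ± 46.4 CPM in SPF (SD, n = 3) to 645 ± 13.6 in GF (SD, n = 5), without overlap, by −0.20 (SE 0.05, edgeR adjusted p = 0.061; DESeq2 adjusted p = 0.0067). Itgam in whole brain differed by −0.18 (SE 0.063, edgeR adjusted p = 0.17). After removing group means, Itgam and Itgb2 correlated with r = 0.96 over the 8 whole-brain libraries and 0.23 over the 34 others.

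The level of Itgam is uncertain in these tables. In the GENCODE M21 annotation of GRCm38, used to look for overlaps, 3450 of its 5024 exon bases (68.7%) also belong to Gm49368, a gene model on the same strand, and reads on shared exons could have been left uncounted. Gm49368 has a row only in the cortex and hippocampus table, at 0.459 to 3.25 CPM. Between tables, mean Itgam in SPF mice was 5.02 times higher in whole brain than in cortex, while Itgb2 was 1.18 times higher. In cortical SPF microglia Itgam was at 57.8 ± 8.64 CPM per kb over all exons (SD, n = 4) and at 185 CPM per kb if only the 1574 unshared bases are taken. Its place in the order of levels is thus not settled, and what the overlap did to its changes was not tested. The 250 bases before Itgam at chr7:128062390-128062639 (plus strand), beside Itgax, are shown because they hold GAGGAA 84 bases before the start and its reverse complement 15 bases before it, in capitals.
Itgam: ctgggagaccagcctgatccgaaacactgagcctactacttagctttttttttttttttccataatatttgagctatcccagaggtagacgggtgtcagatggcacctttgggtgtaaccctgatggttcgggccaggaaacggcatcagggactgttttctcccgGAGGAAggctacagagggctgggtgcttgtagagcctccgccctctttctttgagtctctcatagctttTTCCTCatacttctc

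**Figure D3:**
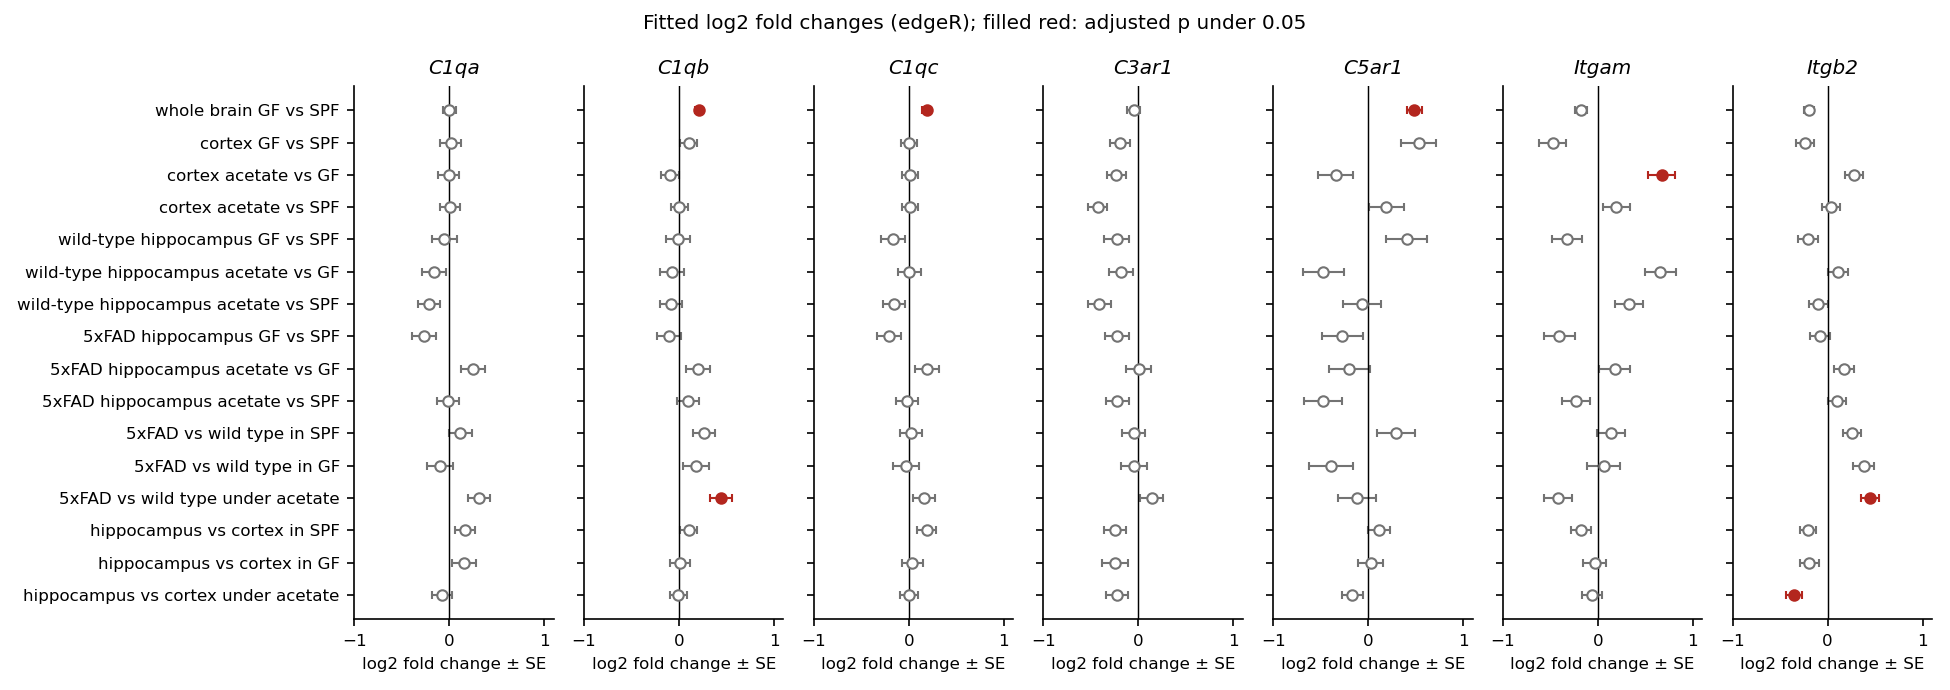
Fitted log2 fold change and SE (x axis) of 7 complement genes (C3 left out for its wide SE) in each comparison between groups (y axis), with calls at an adjusted p under 0.05 filled red. The 7 calls lie in 4 of the comparisons, 6 of them to the right of 0 and Itgb2 between regions to the left.

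Itgb2 rose in 5xFAD hippocampus under acetate. Acetate-treated wild-type hippocampus held 406, 548, 545 and 520 CPM and acetate-treated 5xFAD hippocampus 716, 684, 629 and 728 CPM, without overlap. The log2 difference was 0.45 (SE 0.097, edgeR adjusted p = 0.010), and all 16 alternatives kept the call (edgeR adjusted p up to 0.049). With C1qb, 2 of the 8 genes rose and 0 fell, where 2.51% of all genes were called and 1.83% were called higher. In 3 of the 8 the groups did not overlap, against 9.19% of all genes. Under acetate the 10 microglial markers summed to 48179 to 50502 CPM in 5xFAD and 55265 to 57132 CPM in wild type, and border macrophage markers to 10.9 to 31.4 CPM against 1.33 to 10.2 CPM. Of the 8 border macrophage markers, 5 to 8 were detected in 5xFAD and 3 to 4 in wild-type libraries, with Lyve1 at 0 in the latter. The part of these cells in the change of Itgb2 was not tested.

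In the other conditions the fitted differences of Itgb2 had the same sign and did not pass. In GF hippocampus it was at 468 ± 11.8 CPM in wild type and 611 ± 71.6 in 5xFAD (SD, n = 3 each), with log2 0.38 (SE 0.11, edgeR adjusted p = 0.12; DESeq2 adjusted p = 0.031). In SPF hippocampus it was at 538 ± 54.7 CPM in wild type and 641 ± 28.4 in 5xFAD (SD, n = 4 each), with log2 0.25 (SE 0.096, edgeR adjusted p = 0.33), and without the library labelled SPF2152, whose 674 CPM was the highest of the group, 0.23 (edgeR adjusted p = 0.39). Wild-type and 5xFAD mice did not overlap in any of the 3 conditions, as for 5.19% of all genes in SPF and 16.7% in GF. Itgam did not follow: under acetate it differed by −0.42 (SE 0.15, edgeR adjusted p = 0.15) between 5xFAD and wild type.

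**Figure D4:**
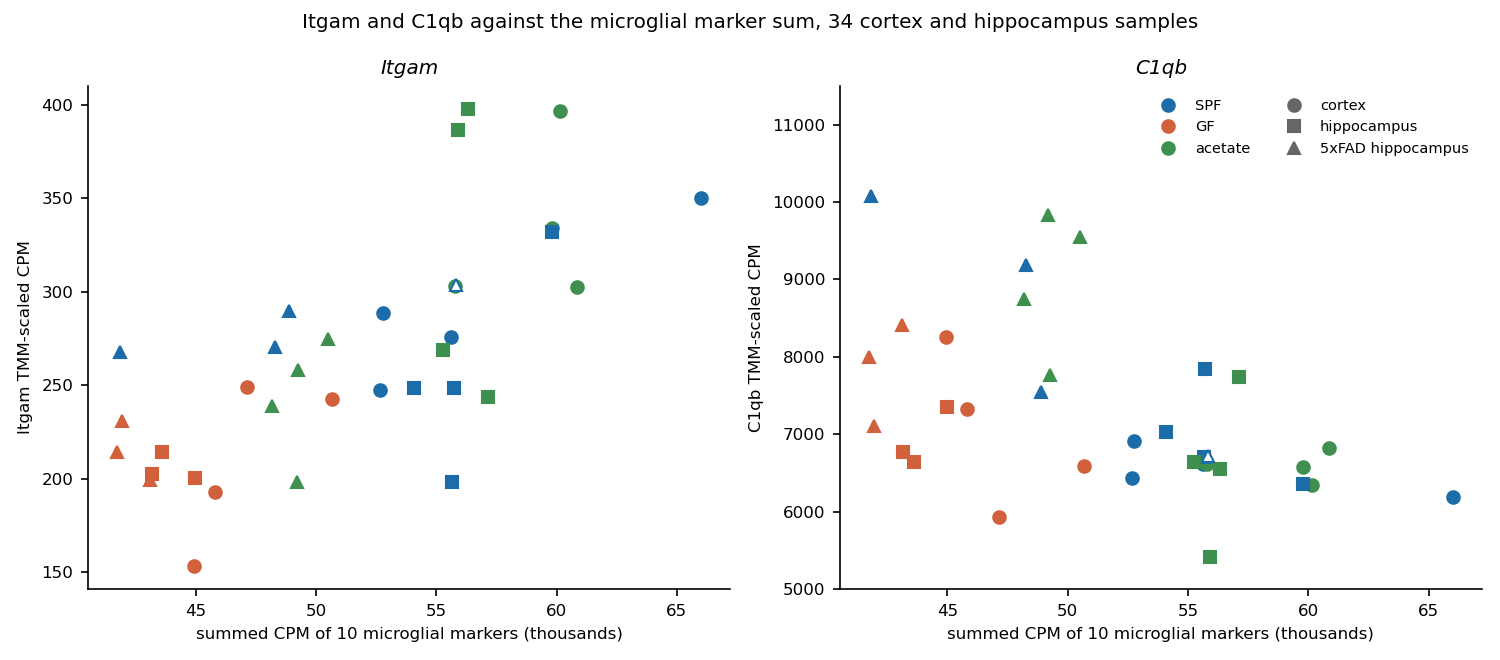
Itgam and C1qb (TMM-scaled CPM, y axes) against the summed CPM of 10 microglial markers (x axis, kilo-CPM) in the 34 cortex and hippocampus samples, by condition (color) and tissue and genotype (symbol; open for 5xFAD SPF2152). GF samples lie toward the low end of the marker sum, between 41733 and 50677 CPM, and hold Itgam levels of 153 to 249 CPM. The 4 acetate-treated 5xFAD samples, at 48179 to 50502 CPM, lie in the same range. 5xFAD SPF samples, at 41830 to 55820 CPM with a median of 48586, lie partly in it.

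The remaining comparisons between groups gave 0 of 8 calls by edgeR. In cortex GF against SPF, 1.71% of all genes were called, 3 of the 8 had an unadjusted p under 0.05, and DESeq2 called 1, Itgam (adjusted p = 0.036). In cortex acetate against SPF, 0.364% of genes were called, 1 of the 8 had an unadjusted p under 0.05, and DESeq2 called C3ar1. Wild-type hippocampus gave 0.727% for GF against SPF (0 of the 8 unadjusted, 0 by DESeq2), 0.492% for acetate against GF (2 unadjusted, 1 by DESeq2) and 0.123% for acetate against SPF (2 unadjusted, 0 by DESeq2). In 5xFAD hippocampus the shares were 1.82% for GF against SPF (2 unadjusted, 0 by DESeq2), 0.082% for acetate against GF (0 unadjusted, 0 by DESeq2; C1qa did not overlap, as for 11.4% of genes) and 0.0527% for acetate against SPF (1 unadjusted, 0 by DESeq2). All 8 genes had fitted changes below 0 in 5xFAD GF against SPF, with a median of −0.25 against 0.00 for all genes; 2 of the 8 did not overlap, where 13.7% of all genes did not. Without SPF2152 all 8 were again below 0, with a median of −0.28. 5xFAD against wild type gave 0.568% in SPF (2 unadjusted, 0 by DESeq2) and 0.756% in GF (1 unadjusted, 1 by DESeq2, Itgb2). Without the library labelled SPF2152 the share for 5xFAD against wild type in SPF was 1.92% and that for 5xFAD GF against SPF 1.88%, still with 0 of the 8 called, and 0.053% for 5xFAD acetate against SPF. The interactions of genotype with condition called 0% of genes, with 1, 2 and 1 of the 8 at an unadjusted p under 0.05; without that library GF against SPF called 0.00588%.

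Between the 2 regions of the same wild-type animals, Itgb2 gave the single call. Under acetate it was lower in hippocampus against cortex, from 642 ± 18.6 to 505 ± 67.2 CPM (SD, n = 4), in 4 of 4 animals, by −0.35 on the log2 scale (SE 0.085, edgeR adjusted p = 0.043). It was 1 lower call among the 8 where 2.38% of genes were called and 1.68% called lower, and it was lost without any 1 of the 4 animals (edgeR adjusted p of 0.061 to 0.19). Itgb2 was also lower in hippocampus in 4 of 4 SPF animals (−0.20, SE 0.085, edgeR adjusted p = 0.29) and in 3 of 3 GF animals (−0.19, SE 0.098, edgeR adjusted p = 0.46). C3ar1 was lower in hippocampus in 4 of 4 SPF and 4 of 4 acetate-treated animals, by −0.24 and −0.23 (SE 0.12 each, edgeR adjusted p = 0.37 and 0.32), and in 2 of 3 GF animals by −0.25 (SE 0.13, edgeR adjusted p = 0.50). C1qa was higher there in 4 of 4 SPF animals by 0.16 (SE 0.11, edgeR adjusted p = 0.56) and in 2 of 3 GF animals by 0.16 (SE 0.12, edgeR adjusted p = 0.68), and lower in 2 of 4 acetate-treated animals (−0.07, SE 0.11, edgeR adjusted p = 0.79). In SPF 0.718% of genes and in GF 0.0359% of genes were called between regions by edgeR, with 0 of the 8 called by edgeR or DESeq2 and 1 and 0 of them at an unadjusted p under 0.05. The differences of the region effect between conditions called 0% of genes, with 0 of the 8 at an unadjusted p under 0.05.

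**Figure D5:**
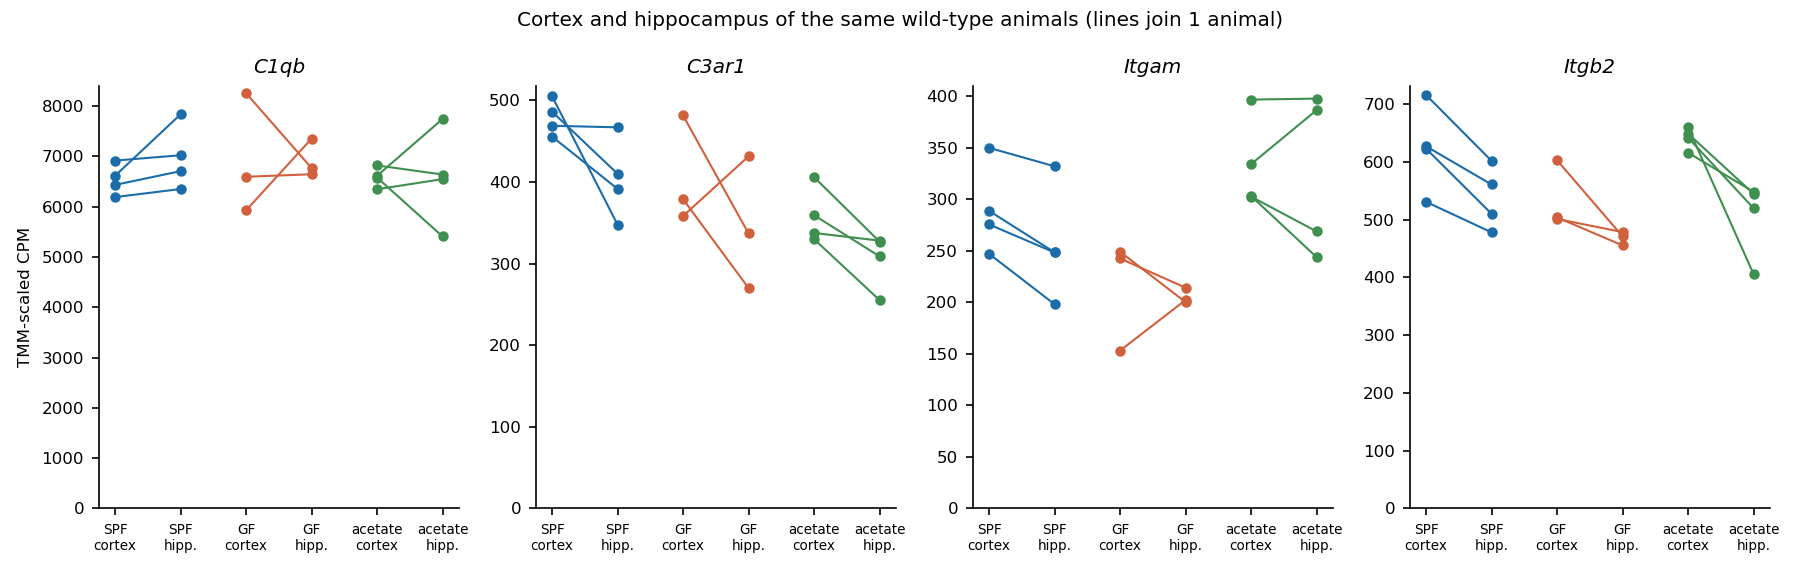
TMM-scaled CPM (y axis, from 0) of C1qb, C3ar1, Itgam and Itgb2 in cortex and hippocampus of the same 11 wild-type animals by condition; lines join the 2 regions of 1 animal. The Itgb2 lines go down from cortex to hippocampus in 4 of 4 SPF, 3 of 3 GF and 4 of 4 acetate-treated animals.

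Among 56 other genes of the complement pathway, 18 were high enough to test in whole brain, 21 in cortex, 27 in hippocampus and 23 between regions. They gave 14 calls, in 10 of the 22 comparisons, where 0% to 2.51% of all genes were called in each. C2 and Cfb, the proteases of the C3 convertases, and Cfp, which stabilises the alternative one, stayed at or below 3.34 CPM in every library. C4b reached 16.0 CPM. Serping1, the C1 inhibitor, was at 0 in 37 of 42 libraries, and Cd55, a decay accelerator, at 0 in all. Cr1l, the rodent membrane regulator Crry, was at 92.8 to 168 CPM. C5ar2 was at 53.6 to 103 CPM and Cd59a at 0 to 3.22 CPM.

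Calr, a chaperone that can act as a C1q receptor at the cell surface, rose by log2 0.30 (SE 0.052, edgeR adjusted p = 0.0078) in whole-brain GF mice, from 1211 ± 47.6 CPM in SPF (SD, n = 3) to 1496 ± 81.1 CPM (SD, n = 5). It was the 1 call of 18 there, and was lost without SPF 1 or SPF 4 (edgeR adjusted p of 0.060 and 0.059). In cortex it was the 1 call of 21 for acetate against GF, with 510 ± 41.6 CPM in GF and 708 ± 62.3 under acetate (SD, n = 4 each; log2 0.47, SE 0.095, edgeR adjusted p = 0.023), lost when any library but GF530 was left out (edgeR adjusted p of 0.054 to 0.099). In 5xFAD hippocampus it was the 1 call of 27 for GF against SPF and went down, from 929 ± 125 CPM in SPF (SD, n = 4) to 634 ± 77.7 in GF (SD, n = 3; log2 −0.56, SE 0.11, edgeR adjusted p = 0.0082), lost without GF527 or GF531. Calr also lost this call with only the groups compared (edgeR adjusted p = 0.062). Without SPF2152 it was −0.63 (SE 0.11, edgeR adjusted p = 0.0050), and Csmd3 (log2 0.66, SE 0.16, edgeR adjusted p = 0.038) and Colec12 (edgeR adjusted p = 0.041) were then called higher in GF too, 3 of 26 where 1.88% of all genes were called. The sign of Calr in GF against SPF thus differed between whole brain and 5xFAD hippocampus, which were fitted apart and not tested against each other.

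Csmd3, a large membrane protein with complement control domains, rose in wild-type hippocampus with the germ-free state. SPF mice held 214, 224, 227 and 267 CPM, GF mice 456, 588 and 398, and acetate-treated mice 572, 454, 599 and 521.1. GF rose over SPF by log2 1.04 (SE 0.16, edgeR adjusted p = 0.0023) and acetate over SPF by 1.20 (SE 0.15, edgeR adjusted p = 0.00019), both calls sharing the SPF mice, each the 1 call of 27 and kept in every alternative run. In cortex it rose in GF by 0.72 (SE 0.17, edgeR adjusted p = 0.036), the 1 call of 21, lost without SPF1, SPF2, SPF3, GF530 or GF532 (edgeR adjusted p of 0.065 to 0.11). Csmd3 also lost this call with no filter on low counts and with only the groups compared (edgeR adjusted p of 0.12 and 0.054). Under acetate it was higher in hippocampus than in cortex by 0.75 (SE 0.13, edgeR adjusted p = 0.011), the 1 call of 23, lost without GFA518.

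In 5xFAD against wild type, 2 of 27 rose in GF and 3 of 27 rose and 1 fell under acetate, where 0.756% and 2.51% of all genes were called. Itgax, which encodes the CD11c chain that pairs with Itgb2 in complement receptor 4, rose in both. It went from 4.25 ± 0.753 to 56.0 ± 5.99 CPM in GF (SD, n = 3 each; log2 3.71, SE 0.79, edgeR adjusted p = 0.026) and from 6.60 ± 4.95 to 59.7 ± 14.6 CPM under acetate (SD, n = 4 each; log2 3.19, SE 0.66, edgeR adjusted p = 0.0093). Colec12, a scavenger receptor with a collectin domain, was at 0 in all 3 wild-type GF libraries and at 1.76, 1.27 and 3.53 CPM in 5xFAD GF, at least 41.1-fold higher against a floor of 3 counts over the group (edgeR adjusted p = 0.044), and rose under acetate as well (edgeR adjusted p = 0.014; 0.054 without wild-type GFA524). C4b, the classical pathway component downstream of C1q, rose under acetate from 0.425 ± 0.494 to 9.01 ± 1.46 CPM (SD, n = 4 each; log2 4.38, SE 1.11, edgeR adjusted p = 0.034). Csmd3 fell by 0.64 on the log2 scale (SE 0.15, edgeR adjusted p = 0.019), and was lost without 5xFAD GFA520 or GFA522 or wild-type GFA524 (edgeR adjusted p of 0.055 to 0.071). The calls of Itgax and Colec12 in GF and of C4b under acetate were lost whichever single library of the compared groups was left out (edgeR adjusted p of 0.069 to 0.16 in GF and 0.053 to 0.084 for C4b). With no filter on low counts, Itgax was lost in GF and under acetate (edgeR adjusted p of 0.11 and 0.054), and C4b under acetate (0.14). Colec12 in GF was lost with only the groups compared (edgeR adjusted p = 0.056). In SPF, 0 of 27 were called by edgeR, with 6 at an unadjusted p under 0.05, and DESeq2 called Calr and Itgax. Without SPF2152 edgeR called both as well, Itgax by log2 2.96 (SE 0.61, edgeR adjusted p = 0.0090) and Calr by 0.42 (SE 0.11, edgeR adjusted p = 0.038), 2 of 26 where 1.92% of all genes were called. The other 11 comparisons without a call by edgeR had 1 to 7 genes at an unadjusted p under 0.05 and 0 to 3 called by DESeq2.

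The genes most like each complement gene over the 34 regional libraries were picked by Pearson r of log2 CPM, with no test. C1qb varied with the ribosomal genes Rpsa (r = 0.92), Rpl19 (0.90) and Rplp0 (0.90), for which r over the 8 whole-brain libraries was 0.27, −0.34 and −0.37. C1qc was nearest Ap2s1 (0.81) and C1qa nearest Cyba (0.77), a subunit of the phagocyte oxidase, with 0.17 and 0.38 in whole brain. C5ar1 was nearest Cebpb, a myeloid transcription factor (0.64, and 0.85 in whole brain). Itgam was nearest Pros1 (0.82, and −0.37 in whole brain), and Itgb2 nearest Timp2 (0.86, and 0.50 in whole brain). C3ar1 was nearest Il10rb (0.66, and 0.74 in whole brain), while C3, near its detection limit, was nearest Ell2 (0.69, and −0.21 in whole brain). Itgam and C1qb moved apart within groups, with r = −0.61 between their deviations over the 34 libraries and −0.70 over the 8 of whole brain. For Itgam and C1qc these were −0.52 and −0.62, and for Itgam and C1qa −0.41 and −0.05.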

How the data were processed

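Bulk RNA-seq of sorted mouse microglia was analysed in 42 libraries of 11 groups. The deposited tables hold raw read counts per gene, made by the authors with STAR 2.5.2b and featureCounts 1.5.1 on a build named GRCh38, per the submitters' processing notes. That is a human build while the symbols are those of mouse, so file coordinates were not used here; GENCODE M21 and RefSeq on GRCm38 served for lengths, overlaps and promoter sequence. Counts were tested in R 4.3.3 with edgeR 4.0.16 (TMM, filterByExpr with a minimum count of 10, robust quasi-likelihood tests, two-sided, Benjamini-Hochberg over all genes tested, threshold 0.05) in 4 fits: whole brain (8 libraries), cortex (12), hippocampus (22) and the regions of 11 wild-type animals (22 libraries, animal as a block). DESeq2 1.42.0, other scaling factors (RLE, upper quartile), other filters, fits of only the groups compared, fits without some libraries and each replicate left out were alternatives. Fits without the library labelled 5xFAD SPF2152 were chosen after seeing the data.

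The 8 genes and the lists (56 pathway genes, cell type markers) were chosen with earlier results of these data known. All 8 genes are named in every comparison, with up to 4 called pathway genes of the smallest p, a fixed set of pathway genes for their levels, and the 3 genes of highest r per complement gene, of which the first is given, or all 3 for C1qb. An item withheld from this text, with its call among the pathway genes, is not reported here. Within groups, 61 library pairs differed by a chi-square per degree of freedom of 10.09 to 60.25, so none looked like a repeat. Replicate numbers of whole-brain SPF and GF mice name different animals (r of deviations −0.04 to 0.00). Cortex and hippocampus are paired by animal number in the labels (r 0.027 to 0.12). Fits were tested on simulated counts.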

Additional observations from a re-analysis of the deposited data

Results flagged for a closer look

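Among 64 gene and group combinations of 4 or 5 libraries, 6 had a highest or lowest library that stood apart by Dixon's gap ratio, the gap to the nearest library over the range of the group; chance flags about 1 in 20. C1qa was low in cortical SPF4 (3023 CPM, nearest 3565; ratio 0.903), high in cortical GFA524 (3661 CPM, nearest 3457; ratio 0.833) and high in hippocampal SPF2 (4332 CPM, nearest 3717; ratio 0.907). C3 in hippocampal GFA524 was at 1.90 CPM where the other 3 acetate-treated wild-type mice were at 0 (ratio 1). Itgam was low in whole-brain GF 1 (1205 CPM, nearest 1299; ratio 0.841), and Itgb2 was high in cortical GF529 (603 CPM, nearest 508; ratio 0.931). C1qa gave no call in these groups with or without those libraries.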

How the results depend on the processing

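Over the alternatives run, 2705 values of the complement genes were recomputed: 2663 stayed on their side of the threshold, 31 lost a call and 11 gained one. No called value changed sign, and 201 uncalled values did. The count of called complement genes in whole brain (3) was 1 with a replicate block, in which C1qb (edgeR adjusted p = 0.069) and C1qc (edgeR adjusted p = 0.11) missed the threshold, and 1 to 3 with a replicate left out (1 without SPF 1 or SPF 3); the numbers name different mice. With DESeq2 the whole-brain count was 4, with Itgb2 lower (DESeq2 adjusted p = 0.0067), and the count went from 0 to 1 in cortex GF against SPF, cortex acetate against SPF, wild-type hippocampus acetate against GF and 5xFAD against wild type in GF. Wild-type hippocampus acetate against GF also gave 1 with no filter on low counts and with a mean of at least 5 CPM. With single replicates left out, the range was 0 to 1 for cortex GF against SPF, cortex acetate against GF and wild-type hippocampus acetate against GF, and 1 to 2 for 5xFAD against wild type under acetate, which was 1 with only the groups compared and without GF530 and GFA518. The region call under acetate went to 0 with RLE size factors (edgeR adjusted p = 0.050), with upper-quartile factors (0.064), with no replicate block (0.10), with any 1 animal left out, and without SPF4, GF530 and GFA518 (0.21); pairing changed no other call between regions. The cause of these changes was not tested. Depth limits C3, at most 8.94 CPM, and the hippocampal libraries SPF4 and 5xFAD SPF2142, with 5862938 and 5743891 counts. Groups of 3 to 5 leave SEs of 0.035 to 0.23 log2 for the other 7 genes between groups of a tissue.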
